A study of Rattus norvegicus with 12 samples.

Results

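Dbp, Tef and Nfil3 were followed across untreated and glutamate-receptor-blocked rat hippocampal cultures, as the measured members of a set of 4 genes: Dbp, Tef, Hlf and Nfil3. Members were found by matching the RefSeq transcript of each array probe to the gene's symbol in a table of rat genes. That match found 5 probes for 3 of the 4 genes, among 21250 genes or unnamed targets tested on the array, and Hlf was not analysed here. Dbp (transcript NM_012543) had 3 probes, and its brightest, A_64_P017188, gave the gene's value. Tef (NM_019194) had 1 probe, A_42_P788480, printed in 10 spots, and Nfil3 (NM_053727) had 1 probe, A_44_P201028.

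Dbp, Tef and Hlf are the proline- and acidic-amino-acid-rich basic leucine zipper (PAR bZIP) factors. They bind D-box elements in DNA, activate transcription, and are best known as output factors that carry circadian rhythm from the core clock to other genes. Nfil3, also called E4BP4, has a related zipper, binds the same elements and represses, so that the balance of activators and repressor sets the activity of a D-box. In the core clock, CLOCK and BMAL1 activate Dbp through E-boxes, while REV-ERB proteins repress Nfil3 through their own response element. In brain the PAR bZIP factors also control pyridoxal kinase, and mice that lack all 3 have seizures.

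The cultures were primary hippocampal cells of Wistar rat embryos at embryonic day 18, grown for 14 to 15 days in vitro. Blocked cultures received both 50 µM GYKI-52466, an antagonist of AMPA-type glutamate receptors, and 10 µM MK-801, an antagonist of NMDA-type glutamate receptors, for 9 h or 26 h. The 4 groups were untreated 9 h, blocked 9 h, untreated 26 h and blocked 26 h. Each had 3 independent cultures, per the labels, and 1 array per culture. The replicate numbers recur in every group, and same-numbered arrays of one time deviated together, as given below. The main fit did not pair them. Neither drug was tested alone, and the hour of the day at harvest was not given in the sources used here. Values are log2 of the processed signal minus the array's 75th percentile, so that 0 is the signal at that percentile and a step of 1 is a doubling. Values of different probes cannot be set against each other as RNA levels. Where arrays of groups are said below not to overlap, this describes the values only. The share of all genes that separate in the same way is not given.

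The arrays came from 6 slides scanned on 2 days, and the days crossed the groups. Day 1 took the untreated arrays of 9 h with the blocked arrays of 26 h, and day 2 took the blocked arrays of 9 h with the untreated arrays of 26 h. The blockade effect averaged over both times and the time effect averaged over both treatments are balanced over the days. An effect at a single time, or within a single treatment, compares arrays of different days. The difference of the blockade effect between 9 h and 26 h cannot be told apart from scan day. Per array, 77.6% to 86.8% of the spots were well above background, and arrays of one group correlated at 0.985 to 0.994 over genes. All 5 probes of the members were well above background on all 12 arrays, and none was saturated.

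Activity-regulated genes were lower in the blocked cultures. All 6 activity-regulated genes listed as a check were lower in blocked cultures over both times, by limma with Benjamini-Hochberg adjustment. In the averaged blockade contrast 4.45% of all genes were called, 2.22% of them all as lower. Bdnf, which encodes a neurotrophin, fell by 2.59 log2 units (adjusted p = 3.90e-06), Arc fell by 2.80 and Fos fell by 1.75. All 12 neuron markers listed were measured, and their summed signal relative to the 75th percentile ran from 24.4 to 29.6 in untreated 9 h cultures, 32.7 to 38.9 in blocked 9 h, 27.8 to 39.1 in untreated 26 h and 27.1 to 30.8 in blocked 26 h cultures. The blocked 9 h range thus lay above the untreated 9 h range. At 9 h 6 of the 12 neuron markers were higher under blockade, where 21.1% of all genes were called. At 26 h none was higher and 2 were lower, where 16.3% of all genes were called. Both of these contrasts compare arrays of different scan days. In the averaged blockade contrast Slc17a7 (0.52, adjusted p = 0.0147) and Neurod6 (0.55, adjusted p = 0.0109) were higher. Both are markers of excitatory neurons, and Dbp and Tef were higher too. The other 10 neuron markers did not pass, and the list had a median of 0.12 and a lowest value of -0.21. Slc17a7 differed by 0.94 at 9 h and 0.09 at 26 h, and Neurod6 by 1.19 and -0.09. Of the 12, only Map2 passed in the averaged time contrast (0.36 higher, adjusted p = 0.0277). None of the 8 astrocyte markers passed the test in the averaged blockade or time contrast, which called 4.45% and 12.7% of all genes. The astrocyte sums ran from 57.0 to 91.9 over all arrays. The summed signal of 8 microglia markers was between 1.01 and 1.81. Of these Cx3cr1 was higher with time (0.54, adjusted p = 0.0498), and the other 7 did not pass. The median time difference of the list was -0.14, beside -0.02 over all genes. Cx3cr1 means were -1.25 and -0.01 in untreated cultures at 9 h and 26 h, and -0.51 and -0.67 in blocked cultures. The 8 oligodendrocyte lineage markers summed to 16.9 to 27.3 in untreated 26 h cultures (median 24.7), where the medians of the other groups were 15.0 to 16.5. Of these Cspg4 was lower with blockade (-0.52, adjusted p = 0.0395) and higher with time (0.48, adjusted p = 0.0282). The other 7 passed in neither averaged contrast. Of 6 vascular markers measured, Kdr was lower with blockade (-0.66, adjusted p = 0.0208), and the other 5 did not pass. The vascular sums ran from 0.426 to 1.39. Meningeal and fibroblast markers (9 of 10 measured) differed between cultures, with sums of 1.56 to 3.08 in replicate 1, 5.67 to 9.09 in replicate 2 and 28.1 to 34.1 in replicate 3 of all groups. In bulk RNA, fewer cells of a type and less RNA per cell cannot be told apart, and the part of cell makeup in the values below was not tested.

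Averaged over both times, the activator Tef was higher under blockade and the repressor Nfil3 was lower. The activator Dbp was higher by its main probe, but that call was lost in 19 of 28 alternatives. Neither of its other probes passed. By the main probes all 3 genes passed the test in the averaged blockade contrast. In it 4.45% of all genes were called, 2.23% higher and 2.22% lower. Dbp and Tef were also higher at 26 h than at 9 h in the averaged time contrast, in which 12.7% of all genes were called (4.93% higher, 7.78% lower). Nfil3 did not pass there, and its time differences in untreated and blocked cultures had opposite signs.

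The promoter windows are printed to show which letters read by clock and activity factors each one holds and lacks. Each is the 250 bases upstream of the gene's start in RefSeq on build GRCr8, 5′ to 3′ on the gene's strand, found for 3 of the 4 genes. Capitals mark every match to the motifs searched on both strands: the D-boxes TTATGTAA and TTACGTAA, the E-box CACGTG, the E-box-like CACGTT, the full cAMP response element TGACGTCA and its first bases TGACG (which the full element contains), the REV-ERB and ROR core TAGGTCA, and the CCAAT box. Dbp lies at chr1:105312006-105312255, plus strand, with 2 CCAAT boxes on the opposite strand, read here as ATTGG. Tef lies at chr7:115206577-115206826, plus strand, with an E-box and 2 CCAAT boxes. Nfil3 lies at chr17:12432126-12432375, plus strand, with TGACG next to the start.
Dbp: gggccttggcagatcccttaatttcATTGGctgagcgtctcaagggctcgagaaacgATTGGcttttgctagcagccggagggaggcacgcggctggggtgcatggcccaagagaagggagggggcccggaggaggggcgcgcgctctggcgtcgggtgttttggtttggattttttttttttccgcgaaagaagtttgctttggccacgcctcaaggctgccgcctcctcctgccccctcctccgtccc
Tef: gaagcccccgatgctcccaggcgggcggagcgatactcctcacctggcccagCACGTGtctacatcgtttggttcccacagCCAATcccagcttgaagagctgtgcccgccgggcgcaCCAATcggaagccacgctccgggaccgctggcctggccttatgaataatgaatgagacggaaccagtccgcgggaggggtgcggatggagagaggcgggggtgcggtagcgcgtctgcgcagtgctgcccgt
Nfil3: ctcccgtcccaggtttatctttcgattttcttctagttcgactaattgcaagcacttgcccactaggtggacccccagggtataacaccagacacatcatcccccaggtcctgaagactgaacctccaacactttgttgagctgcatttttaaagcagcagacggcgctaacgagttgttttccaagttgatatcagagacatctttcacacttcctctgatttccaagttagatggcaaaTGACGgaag
The window was 61.2% G and C in Dbp, 65.6% in Tef and 46.4% in Nfil3. The E-box of Tef spans positions -198 to -193 from the start site, and 5.59% of 33469 rat promoter windows of the same length hold those letters. The TGACG of Nfil3 spans -9 to -5, and 18.2% of windows hold it. CCAAT is in 34% of windows. The D-box letters are in none of the 3 windows, and over all windows 0.828% hold TTATGTAA and 0.108% hold TTACGTAA. The Dbp window held neither the E-box nor the E-box-like letters. The Nfil3 window lacked the REV-ERB and ROR core, which 2.26% of all windows hold. Sequence outside the windows was not searched, so sites elsewhere in the genes were not covered. A match is a description of the sequence only, and binding was not measured.

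Tef, an activator, was higher in blocked cultures at both times. Its log2 values in untreated 9 h cultures were 1.26, 1.24 and 0.99, against 1.78, 1.77 and 1.90 in blocked 9 h cultures. At 26 h the untreated cultures gave 1.468, 1.454 and 1.497 and the blocked cultures 2.29, 2.30 and 2.23. Every blocked array lay above every untreated array of the same time, and also above every untreated array of the other time. The difference averaged over both times was 0.73 (SE 0.066, 95% interval 0.58 to 0.88, adjusted p = 2.41e-04), or 1.66-fold. Of all genes tested, 257 had a larger averaged rise. That call was lost when replicate 2 of all groups was left out (0.75, adjusted p = 0.0816), and in no other of the 26 alternatives tried.

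The blockade difference of Tef was 0.66 at 9 h (interval 0.45 to 0.87, adjusted p = 0.00161, 1.58-fold) and 0.80 at 26 h (0.59 to 1.01, adjusted p = 0.00106, 1.74-fold). At 9 h 21.1% of all genes were called, and at 26 h 16.3%. Without replicate 2 of all groups both calls were lost, with differences of 0.72 (adjusted p = 0.106) and 0.78 (adjusted p = 0.167). The difference between the 2 effects was 0.14 (interval -0.15 to 0.44, adjusted p = 0.472), in a contrast that called 28.6% of all genes. The rise at 9 h came beside the higher neuron marker sums of blocked 9 h cultures. At 26 h the blocked sums, 27.1 to 30.8, overlapped the lower end of the untreated range. Whether the rise of Tef is linked to these sums was not tested.

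Tef also differed with time, by less than with blockade. The averaged time difference was 0.38 (SE 0.066, interval 0.24 to 0.53, adjusted p = 0.00541), or 1.30-fold. The call was lost without replicate 1 (0.40, adjusted p = 0.0636), replicate 2 (0.39, adjusted p = 0.158) or replicate 3 (0.36, adjusted p = 0.0935) of all groups. In untreated cultures the difference from 9 h to 26 h was 0.31 (adjusted p = 0.0404, with 20.2% of all genes called), and this call was lost in 14 of the 15 fits that left arrays out, with values of 0.21 to 0.36. In blocked cultures it was 0.45 (adjusted p = 0.00705, with 25.0% of all genes called), and it did not pass without replicate 1 (0.43, adjusted p = 0.0722) or replicate 2 (0.42, adjusted p = 0.168).

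The level of Tef fell in the order blocked 26 h (2.27 ± 0.04, SD, n = 3), blocked 9 h (1.82 ± 0.07), untreated 26 h (1.47 ± 0.02) and untreated 9 h (1.16 ± 0.15). Blocked 9 h and untreated 26 h, which share a scan day, differed by 0.35 without overlap of arrays, and the difference did not pass the test (adjusted p = 0.0797). The other day's groups, blocked 26 h and untreated 9 h, differed by 1.11 (adjusted p = 1.22e-04).

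**Figure D1:**
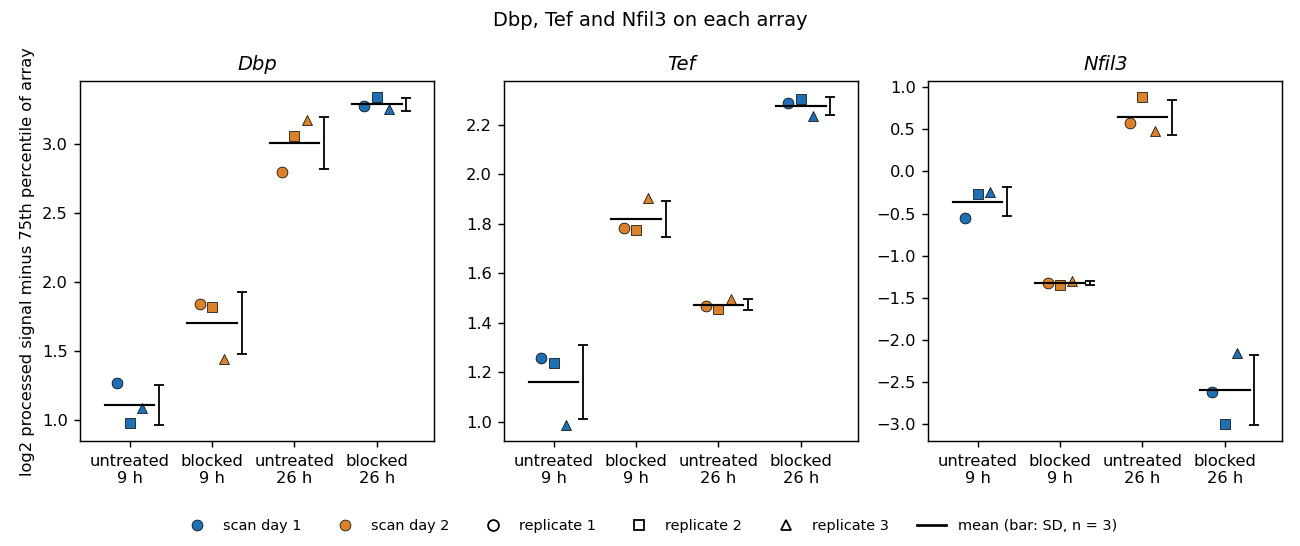
Log2 signal relative to the array's 75th percentile (vertical axis, a separate scale for each gene) for the main probes of Dbp, Tef and Nfil3 in the 4 groups; points are arrays and bars are group means. Nfil3 drops to -2.59 on average in blocked 26 h cultures, Tef is highest there at 2.27, and Dbp separates mainly by time.

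Dbp, the PAR bZIP factor with the strongest known circadian rhythm, differed mainly with time. Its values in untreated 9 h cultures were 1.27, 0.98 and 1.09, against 2.80, 3.06 and 3.17 in untreated 26 h cultures. In blocked cultures they were 1.84, 1.82 and 1.44 at 9 h and 3.27, 3.34 and 3.25 at 26 h. All 6 arrays of 26 h lay above all 6 arrays of 9 h. The averaged time difference was 1.74 (SE 0.098, interval 1.52 to 1.96, adjusted p = 2.67e-05), or 3.34-fold, and it passed in all 28 alternatives. Only 3 of the 21250 genes or targets had a larger averaged rise with time.

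The time difference of Dbp was 1.90 in untreated cultures (adjusted p = 1.40e-04, 3.72-fold) and 1.58 in blocked cultures (interval 1.28 to 1.89, adjusted p = 3.31e-04). Without replicate 2 of all groups these were 1.81 (adjusted p = 0.0507) and 1.62 (adjusted p = 0.0532). Within day 1, blocked 26 h exceeded untreated 9 h by 2.18 (adjusted p = 3.02e-05), and within day 2, blocked 9 h was below untreated 26 h, with a difference of -1.31 (adjusted p = 0.00117). The later group was thus the higher one on each scan day, whichever treatment it had.

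The blockade difference of Dbp was smaller than its time difference, and most alternatives lost the call. The average over both times was 0.44 (SE 0.098, interval 0.22 to 0.65, adjusted p = 0.0332), or 1.35-fold, with 751 genes rising more. The value was above 0 in all 28 alternatives, from 0.32 to 0.54, and the call was lost in 19. These included scaling on the array median (adjusted p = 0.0596), the values of the deposited matrix (0.48, adjusted p = 0.0699) and the mean of its probes (0.37, adjusted p = 0.0807). Of the fits that left arrays out the call passed in 3 of 15: without untreated 9 h replicate 1 (adjusted p = 0.0330), blocked 9 h replicate 3 (0.0184) or untreated 26 h replicate 3 (0.0389).

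Neuron marker sums were higher in blocked than in untreated 9 h cultures, and a link to Dbp was not tested. At 9 h the blockade difference of Dbp was 0.59 (interval 0.28 to 0.90, adjusted p = 0.0141, 1.51-fold). It was lost without untreated 9 h replicate 2 (0.52, adjusted p = 0.0545), blocked 9 h replicate 1 (0.52, adjusted p = 0.0596), blocked 9 h replicate 2 (0.53, adjusted p = 0.0571), replicate 1 of all groups (0.60, adjusted p = 0.0571) or replicate 2 of all groups (0.47, adjusted p = 0.294). At 26 h it was 0.28 (interval -0.03 to 0.59, adjusted p = 0.196). The difference between the 2 was -0.31 (interval -0.75 to 0.12, adjusted p = 0.266).

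The other 2 probes of Dbp, to the same transcript, agreed on time and were less clear on blockade. A_64_P049827 gave 0.09, 0.05 and 0.16 in untreated 9 h, 0.88, 1.17 and 0.78 in blocked 9 h, 1.85, 2.39 and 2.56 in untreated 26 h and 2.15, 2.19 and 2.13 in blocked 26 h cultures. At 26 h its blocked arrays fell inside the range of the untreated ones. A_64_P049828 gave -0.83, -0.74 and -0.66 in untreated 9 h, -0.20, 0.13 and -0.13 in blocked 9 h, 0.87, 1.39 and 1.58 in untreated 26 h and 1.25, 1.21 and 1.26 in blocked 26 h cultures, the same picture. Their averaged time differences were 1.69 and 1.67 (adjusted p = 6.00e-05 for each). Their blockade differences at 9 h were 0.84 (adjusted p = 0.00752) and 0.68 (adjusted p = 0.0174), and at 26 h -0.12 (adjusted p = 0.702) and -0.04 (adjusted p = 0.912), of the opposite sign to the main probe. Averaged over both times they were 0.36 (adjusted p = 0.142) and 0.32 (adjusted p = 0.189), and neither passed.

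**Figure D2:**
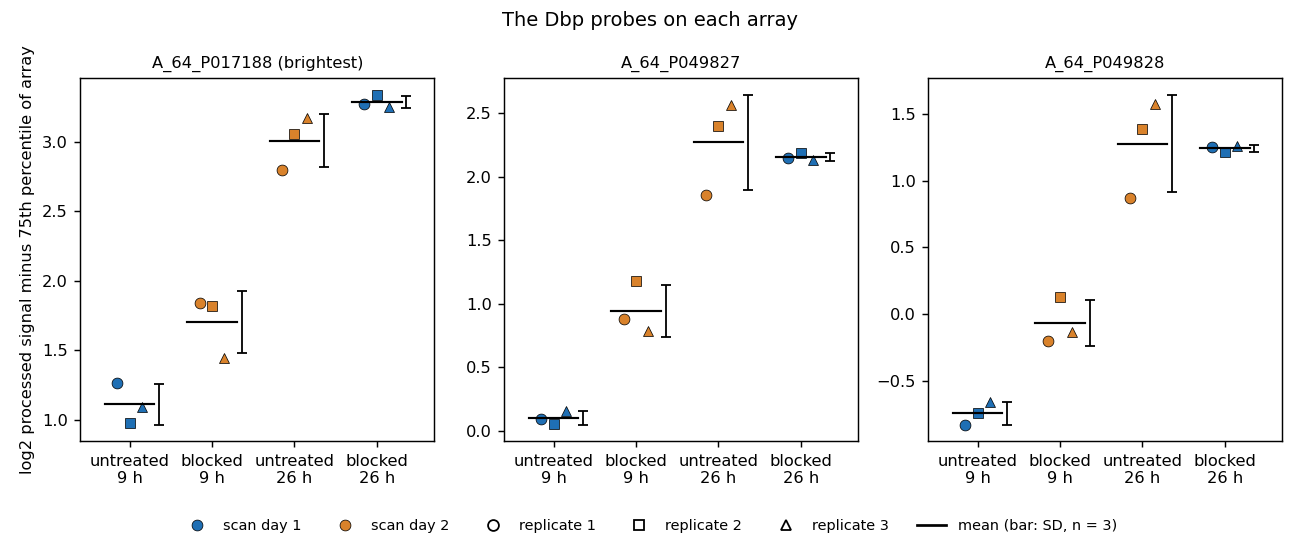
Log2 signal relative to the array's 75th percentile for each of the 3 Dbp probes in the 4 groups; points are arrays and bars are group means. In all 3 probes the 26 h arrays lie above the 9 h arrays, while blocked and untreated arrays separate at 26 h in the main probe, A_64_P017188, and overlap in the other 2.

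The level of Dbp by its main probe fell in the order blocked 26 h (3.29 ± 0.04, SD, n = 3), untreated 26 h (3.01 ± 0.19), blocked 9 h (1.70 ± 0.22) and untreated 9 h (1.11 ± 0.15). The upper 2 did not differ by the test, the step from untreated 26 h to blocked 9 h was the largest, and the lower 2 differed at 9 h as given above.

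Nfil3, the repressor, had the largest blockade difference of the 3 genes. Its values in untreated 9 h cultures were -0.56, -0.27 and -0.24, against -1.32, -1.35 and -1.30 in blocked 9 h cultures. At 26 h the untreated cultures gave 0.57, 0.88 and 0.48 and the blocked cultures -2.62, -2.99 and -2.16. All 6 blocked arrays lay below all 6 untreated arrays. The averaged difference was -2.10 (SE 0.136, interval -2.41 to -1.80, adjusted p = 3.39e-05), a 4.29-fold lower signal in blocked cultures. Only 19 of the 21250 genes or targets fell more, and the call passed in all 26 alternatives.

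The blockade difference of Nfil3 was -0.97 at 9 h (interval -1.40 to -0.54, adjusted p = 0.00688, 1.96-fold lower). It was lost without replicate 1 (-1.07, adjusted p = 0.0643) or replicate 2 (-0.91, adjusted p = 0.114) of all groups. At 26 h it was -3.24 (interval -3.66 to -2.81, adjusted p = 2.09e-05, 9.42-fold lower), and it passed in every fit that left arrays out, with values of -3.53 to -2.92. At 26 h 14 of the 21250 genes or targets fell more than Nfil3. The difference between the times was -2.27 (SE 0.273, interval -2.87 to -1.66, adjusted p = 4.27e-04), which did not pass without replicate 2 of all groups (-2.005, adjusted p = 0.0576) and cannot be told apart from scan day. Within each day the blocked group was lower, by -2.23 between blocked 26 h and untreated 9 h on day 1 (adjusted p = 1.39e-04) and by -1.97 between blocked 9 h and untreated 26 h on day 2 (adjusted p = 7.91e-04).

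With time Nfil3 went up in untreated cultures and down in blocked ones. The difference from 9 h to 26 h was 1.00 in untreated cultures (interval 0.57 to 1.43, adjusted p = 0.00603) and -1.26 in blocked cultures (interval -1.69 to -0.84, adjusted p = 0.00174, 2.40-fold lower). The first was lost without replicate 1 (0.94, adjusted p = 0.0824) or replicate 2 (0.93, adjusted p = 0.107) of all groups, and the second without replicate 2 (-1.08, adjusted p = 0.0645). The average of the 2 was -0.13 (interval -0.43 to 0.17, adjusted p = 0.623). The level fell in the order untreated 26 h (0.64 ± 0.21, SD, n = 3), untreated 9 h (-0.36 ± 0.17), blocked 9 h (-1.33 ± 0.03) and blocked 26 h (-2.59 ± 0.42), and each neighbouring pair differed by the test.

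**Figure D3:**
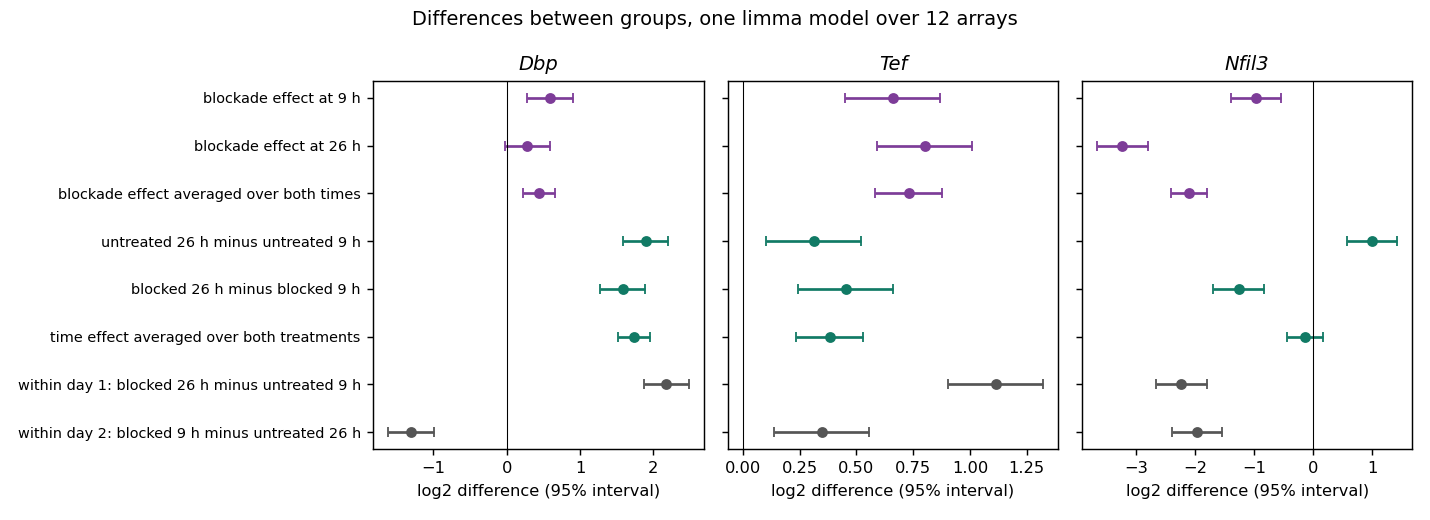
Log2 differences with 95% intervals for Dbp, Tef and Nfil3 (main probes): blockade minus untreated, 26 h minus 9 h, and the comparisons within each scan day, on a separate horizontal scale for each gene. Intervals of Nfil3 lie below 0 in all 3 blockade contrasts, those of Tef lie above 0, and the interval of Dbp at 26 h spans 0.

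The core clock loop, which drives the PAR bZIP genes, was taken as a list of 17 genes, of which 13 were measured. In the averaged blockade contrast 1 was higher, 1 was lower and 11 did not pass, with a median of -0.11 beside -0.02 over all genes. With the replicate number as a block, 5 of the 13 passed, where the count over all genes went from 945 to 2798. Cry2, a repressor of CLOCK and BMAL1, fell by 0.59 (SE 0.113, adjusted p = 0.0167). Nr1d2, which encodes REV-ERB beta, rose by 0.45 (adjusted p = 0.0423) from a dim probe, with group means of -6.50 to -5.41 and a signal well above background on all 12 arrays. The other 11 ranged from -0.37 (Bmal1) to 0.18 (Ciart), and among them Per1 differed by -0.13 (adjusted p = 0.718) and Nr1d1, which encodes REV-ERB alpha, by 0.10 (adjusted p = 0.838).

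In the averaged time contrast 2 clock loop genes were higher, 1 was lower and 10 did not pass (median 0.11, beside -0.02 over all genes). With the replicate block 6 passed, where the count over all genes went from 2701 to 5689. Per2, which encodes a period protein, rose by 1.08 (SE 0.099, adjusted p = 2.43e-04), in the same direction as Dbp. Its group means were -2.80 in untreated 9 h, -2.71 in blocked 9 h, -1.35 in untreated 26 h and -2.01 in blocked 26 h cultures. Its averaged blockade difference was -0.29 (adjusted p = 0.158), which did not pass. Nr1d2 rose with time by 0.64 (adjusted p = 0.00456), and Bmal1, whose protein pairs with CLOCK, fell by 0.46 (adjusted p = 0.0360).

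The contrasts at a single time or within a single treatment compare scan days. At 9 h 2 of the 13 clock loop genes were higher under blockade and none was lower, where 21.1% of all genes were called. At 26 h 5 were lower and none was higher, where 16.3% of all genes were called (median -0.40, beside -0.05 over all genes). From 9 h to 26 h 6 were higher in untreated cultures, with a median of 0.53 beside 0.02 over all genes, and in blocked cultures 2 were higher and 3 were lower, where 20.2% and 25.0% of all genes were called. Of the 10 clock modifiers listed (kinases, ligases and other regulators), 8 were measured. None passed in the averaged blockade contrast, and in the averaged time contrast Noct, a deadenylase-family enzyme with a circadian rhythm, fell by 0.32 (adjusted p = 0.0178). For blockade at 9 h 2 modifiers were higher and 1 was lower, and at 26 h 1 was higher and 2 were lower.

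Genes listed as PAR bZIP targets or relatives were read in the averaged contrasts, which called 4.45% of all genes for blockade and 12.7% for time. Whether the factors act on the listed targets in these cultures was not tested. Of 8 listed targets 6 were measured, and for blockade 1 was lower and 5 did not pass (median -0.05). The one was Nampt, the rate-limiting enzyme of NAD salvage, which fell by 0.46 with blockade (adjusted p = 0.0144) and fell by 0.53 with time (adjusted p = 0.00413). Pdxk, which encodes pyridoxal kinase, differed by -0.22 with blockade (adjusted p = 0.348). Of 6 C/EBP relatives, zipper factors that can bind related sites, 5 were measured. None passed for blockade, and Cebpg fell by 0.25 with time (adjusted p = 0.0354).

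**Figure D4:**
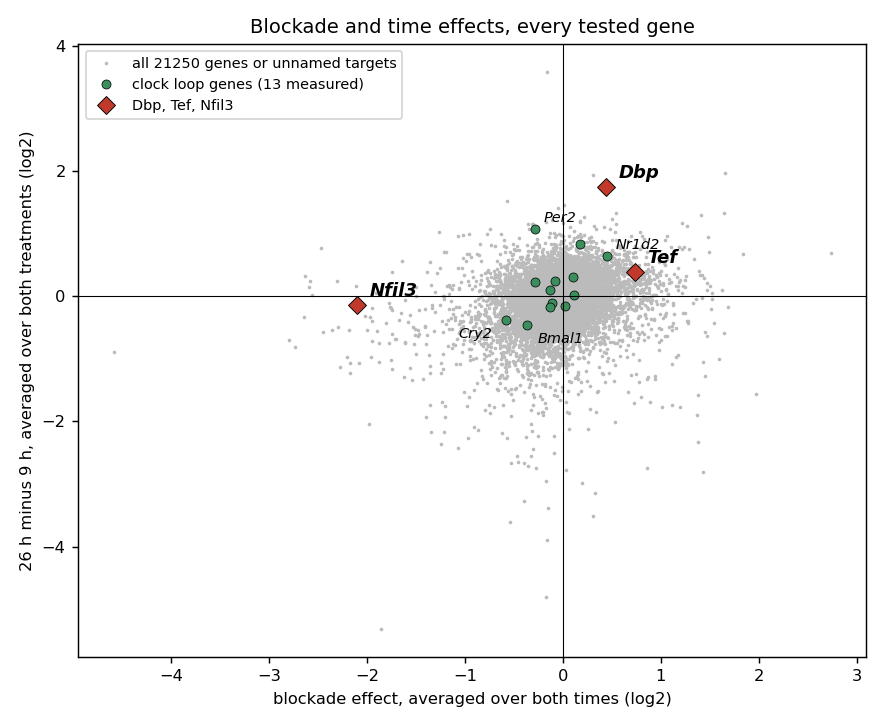
Averaged blockade difference (horizontal axis, log2) against averaged time difference (vertical axis, log2) for Dbp, Tef and Nfil3 (diamonds), the 13 clock loop genes (circles) and all 21250 genes or targets tested (dots). Nfil3 lies far to the left near 0 in time (-2.10, -0.13), Dbp lies at the top (0.44, 1.74), and of the clock loop genes Per2 is the highest (-0.29, 1.08).

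The genes most like each member were taken as the 5 with the highest Pearson correlation over the 12 arrays among 12336 genes with a symbol, as a description. For Nfil3 these were Asb5 (0.979), Rgs4 (0.972), Cyp26b1 (0.970), Map3k13 (0.969) and Ankrd33b (0.969). Rgs4, a regulator of G protein signalling, had an averaged blockade difference of -2.10 and Cyp26b1, an enzyme that degrades retinoic acid, of -2.18, beside -2.10 for Nfil3. For Tef they were Fn3k (0.959), Ube2k (0.957), Cntn2 (0.956), Rnf112 (0.952) and Klhl24 (0.938). Cntn2, a cell adhesion molecule of axons, had differences of 1.48 with blockade and 0.94 with time, both larger than those of Tef. For Dbp they were Nat8f5 (0.969), Golga2 (0.950), Dock11 (0.949), Zdhhc12 (0.949) and Naa60 (0.948), and Nat8f5 differed by 0.31 with blockade and 1.94 with time. All arrays share the groups and scan days, so these correlations hold no independent evidence.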

How the data were processed

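RNA of 12 cultures (4 groups of 3) was measured on single-colour Agilent rat arrays, after TRIzol isolation and Cy3 labelling of 200 ng, per the labels' protocols. The deposited scanner output holds the processed signal of Feature Extraction 10.5.1.1, an intensity from which background was subtracted, per the file headers, with no normalization between arrays; the design build is rn4. The authors also deposited a log2 matrix whose scaling rule is not given in the sources used here. Each signal was taken as log2 and set against its array's 75th percentile; control spots and 3751 outlier spot values were dropped, and spots of a probe averaged. Probes were kept where every array of 1 or more groups was well above background (24034 of 30367), and the brightest kept probe represented a gene. Probes were named through RefSeq transcripts, older list symbols through synonyms. Group means were fitted with limma 3.58.1 (R 4.3.3), two-sided, with Benjamini-Hochberg adjustment over 21250 genes or targets and a threshold of 0.05. The fits were tested on simulated data with independent noise on each array. Deviations shared by replicate, slide or scan day were thus not covered by that test. Dbp's other probes were adjusted over all probes. Arrays limit precision by their number, 3 per group.

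The members and lists were chosen with earlier results of these data known. Genes of the lists were named where they passed in an averaged contrast; others named were chosen after their values were seen. Alternatives covered scaling, background, filters, probes, blocks, weights and left-out arrays. Same-numbered untreated and blocked arrays of one time deviated together (correlation 0.177 to 0.657, all over 0.1). The main fit did not pair them. A fit with the replicate number as a block was run as an alternative. Between times of one treatment the correlation was -0.04 for replicate 2 of untreated cultures. The other pairs between times lay from 0.253 to 0.636. The deposited replicates are independent cultures, per the labels.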

Additional observations from a re-analysis of the deposited data

Results flagged for a closer look

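The difference of the blockade effect between 26 h and 9 h passed limma's test for 3 of the 10 genes set against it, where 28.6% of all genes were called, and for all 3 it cannot be told apart from scan day. The 10 were the members and the list genes that passed in an averaged contrast. For Nfil3 it was -2.27 (SE 0.273, adjusted p = 4.27e-04), since the effect was -0.97 at 9 h and -3.24 at 26 h. For Per2 it was -0.76 (adjusted p = 0.0163), with 0.09 at 9 h and -0.67 at 26 h. For Noct it was 1.09 (adjusted p = 6.22e-04), with -0.74 at 9 h and 0.34 at 26 h. Genes of the 4 lists outside the 10, chosen after their values were seen, also passed: Per3 (-1.54, adjusted p = 2.46e-04), Usp2 (-1.49, adjusted p = 5.30e-04), Npas2 (-1.17, adjusted p = 0.0159), Nr1d1 (-1.14, adjusted p = 0.0232), Btrc (-0.92, adjusted p = 0.00536), Gsk3b (-0.60, adjusted p = 0.0247) and Alas1 (0.82, adjusted p = 0.00151). Taken whole, the clock loop list had 4 lower of 13 measured, and the clock modifiers had 1 higher and 3 lower of 8. The PAR bZIP targets had 1 higher of 6, and the C/EBP relatives had none of 5. These counts stand beside the 28.6% of all genes called.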

How the results depend on the processing

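Under all alternatives run, Nfil3 kept its blockade call and Dbp its time call in the averaged contrasts, and no averaged value of a member changed sign. The averaged blockade call of Dbp was lost with scaling on the median (0.45), deposited values (0.48), no filter (0.44, adjusted p = 0.0543), the mean of its probes (0.37), slide as a fixed block (0.44, adjusted p = 0.0541, an alternative chosen after seeing the data) and probes A_64_P049828 (0.32) and A_64_P049827 (0.36). At 26 h those 2 probes gave -0.037 and -0.12. The difference of Dbp's effect between times passed with the mean of its probes (-0.66, adjusted p = 0.0389), array weights (-0.45, adjusted p = 0.0400) and the single probes (-0.71 and -0.96). The untreated time call of Tef was lost with median scaling (0.30, adjusted p = 0.119), normexp (0.31, adjusted p = 0.0599) and deposited values (0.33, adjusted p = 0.150). The cause was not tested.

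With the replicate block, which pairs same-numbered arrays, Dbp gave an adjusted p of 0.0244, Tef of 3.11e-04 and Nfil3 of 1.16e-04 for the averaged blockade, and no member's call changed. It called 2798 genes for averaged blockade, 5689 for averaged time, 7625 at 9 h, 6737 at 26 h, 9509 for their difference, 7324 for untreated and 8785 for blocked time, where the fit without it called 945, 2701, 4479, 3472, 6077, 4288 and 5321. In the same order a threshold of 0.01 left 336, 985, 1889, 1140, 3320, 1878 and 2467. Slide as a random block called 2991 for blockade, 6031 for time and 3530 for the difference, and as a fixed block 2303 and 5187. Array weights called 2346, 4291, 8335 at 26 h, 6767 for untreated and 8103 for blocked time.

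Clock loop calls for blockade, 2 by default, were 1 with quantile, normexp or no filter, 5 with the replicate block, 4 with either slide block and 0 at 0.01. For time, 3 by default, they were 6 with the replicate or random slide block and 5 with weights or the fixed slide block.

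Leaving arrays out gave averaged blockade values of 0.37 to 0.54 for Dbp, 0.68 to 0.76 for Tef and -2.23 to -1.91 for Nfil3, and time values of 1.64 to 1.87, 0.34 to 0.41 and -0.24 to -0.03. Members called ran from 1 to 3 for blockade and 1 to 2 for time, and clock loop calls from 0 to 2 and 0 to 4. All-gene calls ran from 38 to 976 (blockade), 170 to 2554 (time), 9 to 4604 (9 h), 21 to 4457 (26 h), 3 to 6192 (difference), 43 to 3970 (untreated) and 9 to 5768 (blocked), each lowest without replicate 2 of all groups, which leaves 8 arrays.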
